A study of Mus musculus with 6 samples.

Results

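The untreated baseline of C2C12 myotubes was described here from 3 of the 6 libraries of the series, those whose labels give no added cytokine. C2C12 is an established line of mouse myoblasts, which on serum withdrawal stop dividing and fuse into myotubes with many nuclei. By the protocols in the labels, the cells grew in DMEM with 10% fetal bovine serum and nonessential amino acids to near confluency. They then spent 3 days in DMEM with 2% horse serum and were collected untreated, at the time point labelled 12 h, beside cultures that had received TWEAK, a cytokine of the TNF superfamily, at 10 ng/ml. All libraries shared RNAzol extraction and poly(A) enrichment. The untreated libraries are numbered trial 1, 2 and 3. The model is a single cell line, the labels still give its cell type as myoblast, and whether each trial was its own culture is not stated there, so the spread between trials may be technical. The FPKM levels below are those of the untreated libraries alone, and no treated against untreated comparison was made.

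Muscle differentiation exchanges members within many gene families. Myoblasts leave the cell cycle, the MyoD-family factors and their MEF2 partners switch on contractile genes, and fused myotubes first build sarcomeres from embryonic and cardiac-type isoforms that later give way to adult fast or slow ones. Cells that do not fuse remain as quiescent, mononucleated reserve cells, which keep Pax7, Id genes and Notch targets and resemble satellite cells. Which isoform a culture expresses therefore describes how far it has matured.

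Expression is given as FPKM, a fragment count scaled to gene length and library depth. Levels of different genes are compared per length, so a comparison depends on the length assigned to each gene. Values are means ± SD over the 3 trials. The libraries held 33493847, 33595916 and 40918664 reads on genes in trials 1, 2 and 3. Of 49592 genes, 11581 had a mean of at least 1 FPKM, here called detected, which is 23.4% of the table. A further threshold of 100 FPKM was passed by 619 genes, or 1.25%, and 27 genes passed 1000 FPKM. Detected genes had a median of 10.1 FPKM. On log2(FPKM + 1) across the 11581 detected genes, which are not independent replicates, Pearson's r between libraries was 0.996 for trials 1 and 2, 0.993 for trials 1 and 3 and 0.994 for trials 2 and 3.

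Promoter sequences are shown for 2 pairs of genes that belong to the isoform pairs described below. Acta1 and Actc1 encode skeletal and cardiac alpha-actin, and Chrng and Chrne encode the fetal and adult subunits of the muscle acetylcholine receptor. Each sequence is the 250 bases before the RefSeq transcription start on build GRCm38.p6, printed 5′ to 3′ on the gene's strand. Of 324 listed genes, 239 matched the RefSeq promoter table. Capitals in the actin promoters mark a CArG box, the sequence class bound by serum response factor. Capitals in the receptor promoters mark CAGCTG, an E-box form bound by MyoD-family factors, which reads the same on both strands.
Acta1, chr8:123894776-123895025, minus strand: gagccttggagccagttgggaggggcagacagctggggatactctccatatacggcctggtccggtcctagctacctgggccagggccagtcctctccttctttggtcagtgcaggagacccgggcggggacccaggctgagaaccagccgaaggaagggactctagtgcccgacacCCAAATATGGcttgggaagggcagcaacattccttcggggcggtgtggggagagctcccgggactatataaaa
Actc1, chr2:114052876-114053125, minus strand: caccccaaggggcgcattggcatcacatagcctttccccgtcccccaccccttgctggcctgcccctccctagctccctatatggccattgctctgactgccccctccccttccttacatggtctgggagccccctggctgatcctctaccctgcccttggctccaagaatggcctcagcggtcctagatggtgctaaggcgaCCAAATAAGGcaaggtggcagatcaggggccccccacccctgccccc
Chrng, chr1:87205561-87205810, plus strand: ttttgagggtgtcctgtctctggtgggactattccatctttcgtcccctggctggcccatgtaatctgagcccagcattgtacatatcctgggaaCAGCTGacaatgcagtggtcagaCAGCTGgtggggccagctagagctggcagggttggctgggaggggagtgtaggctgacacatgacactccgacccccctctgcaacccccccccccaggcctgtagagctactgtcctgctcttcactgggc
Chrne, chr11:70619195-70619444, minus strand: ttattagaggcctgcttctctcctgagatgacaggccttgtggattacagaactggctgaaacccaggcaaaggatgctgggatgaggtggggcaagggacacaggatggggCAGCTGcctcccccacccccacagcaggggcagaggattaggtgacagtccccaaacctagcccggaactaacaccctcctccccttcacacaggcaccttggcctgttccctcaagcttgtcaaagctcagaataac
The CArG box began 73 bases before the start of Acta1 and 47 bases before that of Actc1. CAGCTG began 155 and 132 bases before the start of Chrng and 138 bases before that of Chrne. Among all 27025 promoters of the table, 12.8% held CAGCTG and 1.40% held a CArG box in the same window. Of the 10 skeletal muscle marker genes, 5 held CAGCTG and 1 held a CArG box. A match is a description of these letters only. The receptor genes both hold CAGCTG although their levels, given below, were far apart.

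Genes of the contractile apparatus were prominent among the most abundant transcripts. The highest mean of all genes was that of Mylpf, the fast regulatory myosin light chain, which lies at chr7:126808062-126813470 on build GRCm39 of the deposited table. It stood at 5828, 6119 and 5753 FPKM in trials 1, 2 and 3, and in trial 3 it lay below mt-Co1 (6701 FPKM). Of the 50 highest genes, 15 belonged to the lists of sarcomeric genes and 6 were mitochondrially encoded. The 59 listed sarcomeric genes, of which 52 were detected against 23.4% of all genes, held 9.12% ± 0.352 of all FPKM.

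Among the 20 highest genes, the other sarcomeric members were Tnnc1 (mean 4552 FPKM), Acta1 (4001 FPKM), Tnnt3 (2678 FPKM), Myl1 (2439 FPKM), Tnnc2 (2375 FPKM) and Tpm2 (1844 FPKM). The mitochondrial genes among these 20 were mt-Co1, mt-Cytb, mt-Nd1, mt-Nd2 and mt-Nd5, with means from 2081 to 5647 FPKM. The remaining members were the smooth muscle actin gene Acta2 (1352 FPKM), the imprinted noncoding RNA H19 (4759 FPKM), the actin-monomer binder Tmsb10 (3745 FPKM), the elongation factor Eef1a1 (2945 FPKM), the galectin Lgals1 (2711 FPKM), Tpt1 (1410 FPKM), the chaperone Hsp90ab1 (1326 FPKM) and the calcium-binding S100a4 (1275 FPKM). The 10 highest genes held 10.9% ± 0.179 and the 100 highest 29.6% ± 0.203 of summed FPKM, and 50% of it lay in 486 genes.

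The labelled cell type was checked against marker genes. All 10 skeletal muscle markers were detected and 8 of them exceeded 100 FPKM, which 1.25% of all genes did, although the labels call the cells myoblasts. Markers of other lineages were mostly under the detection level, as were most genes of the table, of which 23.4% were detected. The counts that follow therefore do not show by themselves that a lineage was absent. Detected were 1 of 8 macrophage and leukocyte markers (Cd68, 1.24 FPKM), 0 of 6 endothelial, 1 of 6 adipocyte (Pparg, 2.93 FPKM) and 1 of 6 osteoblast markers (Runx2, 3.39 FPKM). Of 8 cardiac markers 3 were detected, namely Myh6 (15.4 FPKM), Gata4 (4.46 FPKM) and Tnni3 (2.77 FPKM), and Myl7 was listed at 0. The leukocyte antigens Adgre1, Cd3e and Tyrobp were listed at 0 in every library. Of 8 neuron and Schwann markers only Tubb3 was detected, at 11.3, 8.81 and 4.79 FPKM.

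The fibroblast and smooth muscle lists held high members. Of 8 fibroblast and fibro-adipogenic markers, 7 were detected, against 23.4% of all genes. The highest was the collagen gene Col3a1 at 551, 592 and 704 FPKM. Pdgfrb stood at 69.6 FPKM, Ly6a at 54.1, 68.5 and 48.8 FPKM and Col1a1 at 47.3 FPKM, while Thy1 had 1 read in all. The summed level of the 8 markers was 733, 812 and 916 FPKM in trials 1, 2 and 3. Of the 7 detected, 5 were highest in trial 3 and 2 in trial 2. Of 6 smooth muscle markers 3 were detected, namely Acta2 with a mean of 1352 FPKM, Tagln at 97.5 FPKM and Smtn at 44.7 FPKM, while Cnn1 (0.193 FPKM) and the smooth muscle myosin Myh11 (0.013 FPKM) were near 0 and Myocd was listed at 0. In such bulk libraries fewer cells of a type and less RNA per cell cannot be told apart.

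The embryonic gene led the myosin heavy chains, the motor proteins of the thick filament. Of 14 genes 10 were detected, against 23.4% of all genes. Myh3 (chr11:66969126-66993117) was the highest, at 1121, 1077 and 885 FPKM. The adult fast gene Myh1 (IIx, chr11:67090878-67115401) followed at 518, 590 and 517 FPKM. The lowest trial of Myh3 stood above the highest of Myh1, so their order was the same in every library.

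Next among the sarcomeric heavy chains came Myh4, Myh7 and Myh8. Myh4, the fastest adult isoform (IIb, chr11:67128855-67151272), stood at 91.0, 151 and 166 FPKM, and Myh7, the slow and ventricular isoform, at 127, 140 and 118 FPKM. These ranges overlapped. The perinatal gene Myh8 stood at 96.8, 87.1 and 83.7 FPKM, below Myh7 in each trial. Myh2, the adult IIa gene, was far lower, with a mean of 16.6 FPKM, and its range overlapped that of the atrial gene Myh6 (15.4 FPKM). Myh13, an extraocular isoform, had 45 reads over all libraries and Myh15 was listed at 0. Nonmuscle Myh9 remained present with a mean of 203 FPKM.

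**Figure D1:**
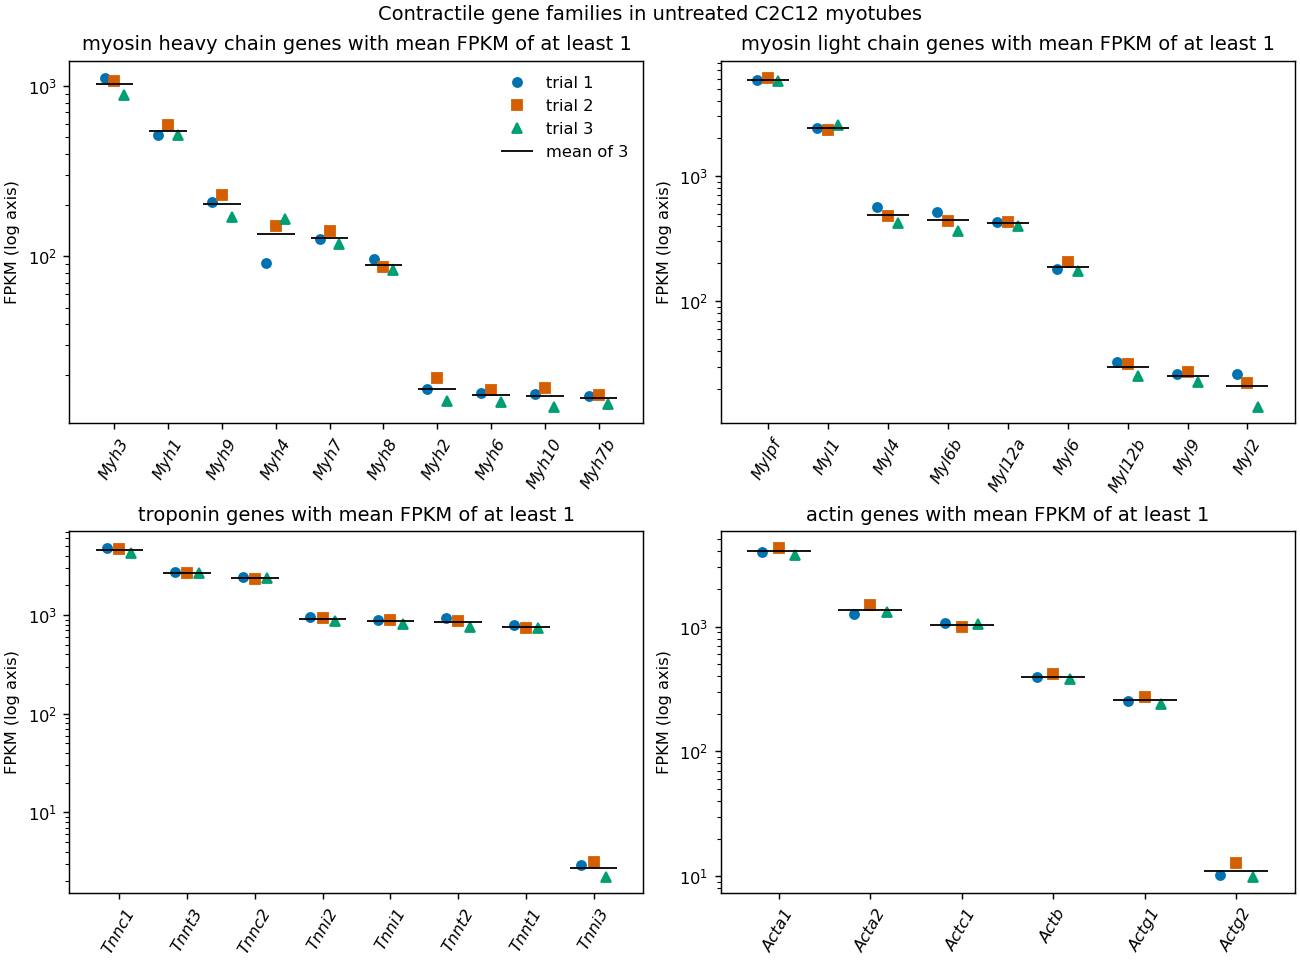
FPKM on a log axis for the myosin heavy chain, myosin light chain, troponin and actin genes with a mean of at least 1 FPKM, with 1 point per untreated trial and a bar at the mean of 3. Within the heavy chains Myh3 and Myh1 stand apart from the rest, and Myh4 in trial 1 (91.0 FPKM) lies below its other values.

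As shares of the summed FPKM of striated heavy chains, the developmental isoforms Myh3 and Myh8 held 60.9%, 55.5% and 53.5% in trials 1, 2 and 3 (mean 56.6% ± 3.81). The adult fast isoforms held 35.3% ± 3.71, with 36.3% in trial 2 and 38.5% in trial 3. The slow and cardiac isoforms held 7.14%, 7.47% and 7.29% (mean 7.30% ± 0.166). The developmental class was thus the largest in all 3 trials and the slow class varied the least of these 3. The fast share was lowest in trial 1, where Myh4 alone held 4.55% against 7.19% and 9.15% in trials 2 and 3. Myh1, Myh2, Myh4 and Myh8 lie together on chromosome 11 and are close in sequence, so reads shared among them could have been split or dropped by the counting.

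Fast genes held most of the light chain FPKM. Mylpf and Myl1, the fast regulatory and essential chains, held 83.8% ± 1.55 of the FPKM of 11 light chain genes and 66.4% of their reads when these were not divided by gene length. Myl4, the embryonic and atrial essential chain, followed at 563, 482 and 417 FPKM. The chains listed as slow were far lower. Myl2 stood at 26.1, 22.2 and 14.3 FPKM, and Myl3 had 13, 21 and 16 reads, a mean of 0.423 FPKM. Myl6b, counted here with the nonmuscle and smooth chains and not with the slow ones, had a mean of 441 FPKM. Its range, 366 to 518 FPKM, overlapped that of Myl4. The atrial gene Myl7 was listed at 0. Mylpf exceeded Myl2 by 223-, 275- and 402-fold in the 3 trials. A processed pseudogene of Mylpf, Mylf-ps (chr12:101188256-101188676), was listed at 850, 811 and 1099 FPKM, and reads of these copies may have been exchanged, so both levels are uncertain.

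**Figure D2:**
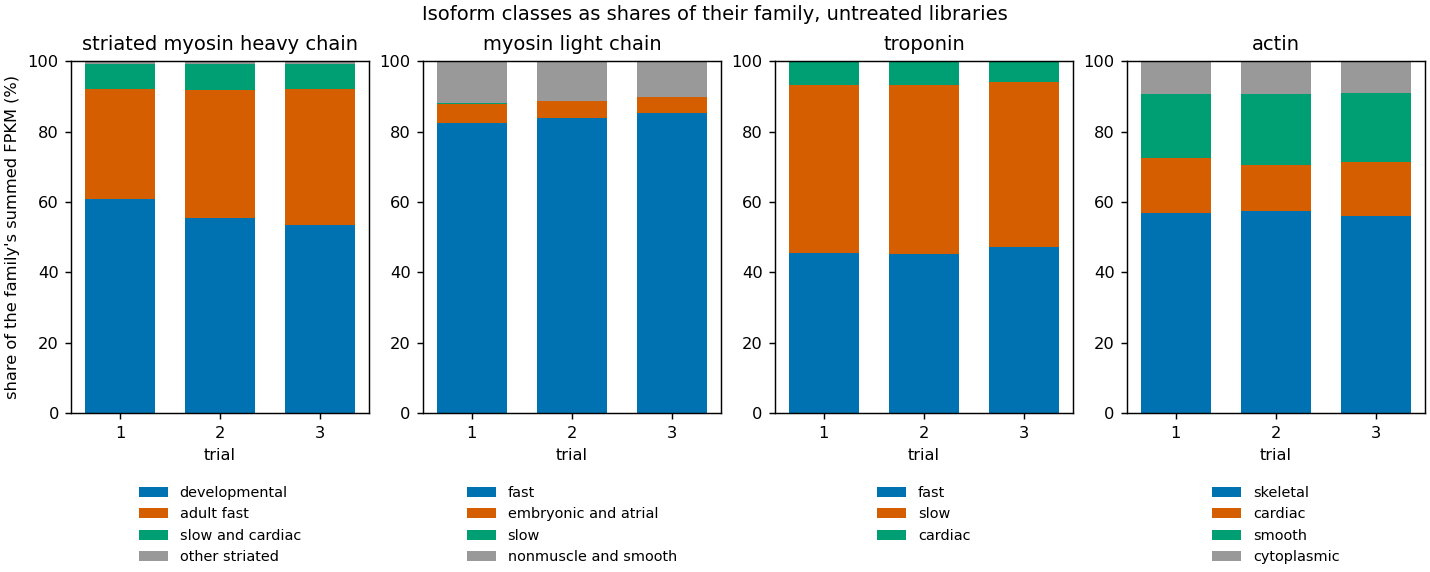
Stacked shares (%) of each family's summed FPKM held by its isoform classes, in untreated trials 1, 2 and 3. Developmental isoforms hold the largest part of the heavy chains (53.5% to 60.9%), fast isoforms most of the light chains, and fast and slow troponins nearly equal parts.

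Troponins, the calcium switch of the thin filament, were mixed. Fast members held 46.0% ± 1.12 and slow members 47.4% ± 0.692 of their FPKM, and cardiac members 6.58% ± 0.447. All 8 genes were detected and 7 exceeded 100 FPKM, against 23.4% and 1.25% of all genes. The slow and cardiac troponin C, Tnnc1, was the highest at 4796, 4612 and 4248 FPKM, against 2445, 2318 and 2361 FPKM for fast Tnnc2. Tnnc1 was 1.92-fold higher, and these ranges did not overlap.

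The 3 troponin subunits did not share a balance. Among inhibitory subunits, fast Tnni2 (950, 934 and 861 FPKM) and slow Tnni1 (881, 887 and 811 FPKM) overlapped in range, although Tnni2 was the higher of the pair in each library, by 1.05- to 1.08-fold. Among the tropomyosin-binding subunits, fast Tnnt3 (2678 ± 61.0 FPKM) exceeded slow Tnnt1 (752 ± 27.7 FPKM) by 3.56-fold. Tnnt2, the cardiac troponin T that embryonic skeletal muscle also uses, reached 931, 876 and 751 FPKM, whereas cardiac Tnni3 stood at 2.77 FPKM. Without division by gene length, slow, fast and cardiac members held 41.9%, 38.0% and 20.1% of troponin reads, and the log2 ratio of Tnni2 to Tnni1 was -1.18 in place of 0.09. The gene lengths recovered from the FPKM values were 3330 bases for Tnnt2 and 2153 for Tnni1, against 1079 for Tnnt3 and 895 for Tnni2. Whether these lengths match the transcripts present was not tested, so the troponin balance is uncertain.

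Skeletal alpha-actin led the actins. Acta1 stood at 3950, 4280 and 3774 FPKM and Actc1, the cardiac isoform of early myotubes, at 1068, 992 and 1040 FPKM, a 3.87-fold difference. Acta2, named smooth muscle actin, exceeded Actc1 in every library with 1260, 1496 and 1301 FPKM. By class, skeletal actin held 56.7%, smooth actins 19.3%, cardiac actin 14.7% and the cytoplasmic genes Actb and Actg1 9.24% of actin FPKM. Actin coding sequences are nearly identical, so the split between these genes depends on how shared reads were counted, which is not given in the sources used here. Of the tropomyosins, which cover the actin filament, Tpm2 held 63.4% and Tpm1 25.9%.

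Sarcomere framework genes were present at uneven levels, with 26 of 29 Z-disc, titin and M-band genes detected, against 23.4% of all genes. Des, the muscle intermediate filament gene, stood at 1054, 1045 and 889 FPKM, and mesenchymal Vim at 824, 987 and 891 FPKM. These ranges overlapped, and the order of the pair was reversed in trial 3. Nes, an intermediate filament gene of immature muscle, was also high at 505 ± 83.0 FPKM. The fast-fiber alpha-actinin Actn3 exceeded the general form Actn2 by 10.2-fold, with means of 564 and 55.5 FPKM.

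Among other Z-disc members the slow form could be the higher. The slow calsarcin Myoz2 stood at 48.3, 36.6 and 40.7 FPKM against 3.85, 4.84 and 5.53 FPKM for fast Myoz1. Mybph, a myosin-binding protein of the thick filament, reached 970 ± 141 FPKM, while the C-type members Mybpc2 (13.2 FPKM) and Mybpc1 (9.19 FPKM) were low and cardiac Mybpc3 was near 0. The giant ruler genes Neb and Ttn stood at 58.8 ± 7.42 and 22.3 ± 3.12 FPKM. Both are far longer than other genes of the list, and their levels are per length. Myot, a late Z-disc gene, stood at 1.21 FPKM and Dmd, the dystrophin gene, at 0.646 FPKM.

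Calcium-handling genes combined adult and developmental members, with 15 of 19 detected, against 23.4% of all genes. The fast calcium pump Atp2a1 stood at 461, 503 and 516 FPKM, above the slow pump Atp2a2 at 259, 256 and 254 FPKM. The store protein showed the opposite order. Casq2, the slow and cardiac calsequestrin, stood at 738, 781 and 766 FPKM, and the fast Casq1 at 100, 113 and 167 FPKM. Casq2 was 6.01-fold higher.

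The release machinery was of the skeletal type. Ryr1, the skeletal release channel, stood at 59.1, 59.5 and 49.6 FPKM against 4.69 FPKM for Ryr3, a developmental form. The voltage sensor gene Cacna1s stood at 54.9, 53.0 and 44.6 FPKM, and its cardiac counterpart Cacna1c had 1 read in all. The sarcoplasmic reticulum genes Jph2 (175 FPKM) and Hrc (172 FPKM) exceeded 100 FPKM. Pvalb, a calcium buffer of mature fast fibers, was low and varied, with 12.8 FPKM in trial 1 and 27.6 FPKM in trial 3, and the pump inhibitors Sln and Pln had 4 and 2 reads.

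The fetal subunit prevailed over the adult one in the acetylcholine receptor. Chrng (chr1:87132379-87140416 on GRCm39) stood at 232, 228 and 213 FPKM and Chrne (chr11:70505709-70510042) at 1.59, 2.17 and 2.08 FPKM, from 170, 230 and 272 reads. Chrng was 115-fold higher by mean, and the fetal subunit held 99.1% ± 0.159 of the FPKM of the pair. The shared subunits were all above 100 FPKM, with Chrna1 at 336, Chrnd at 144 and Chrnb1 at 112 FPKM.

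Genes that cluster the receptor were present as well. Rapsn, the scaffold under the receptor, stood at 121 FPKM, Lrp4, the agrin receptor, at 56.5 FPKM, its adaptor Dok7 at 27.8 FPKM and the kinase Musk at 24.4 FPKM. Agrn itself was at 6.84 FPKM. Ache, the enzyme that ends transmission, was the only one of 12 genes under the detection level, at 0.762, 0.578 and 0.415 FPKM. Of all genes, 23.4% were detected.

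**Figure D3:**
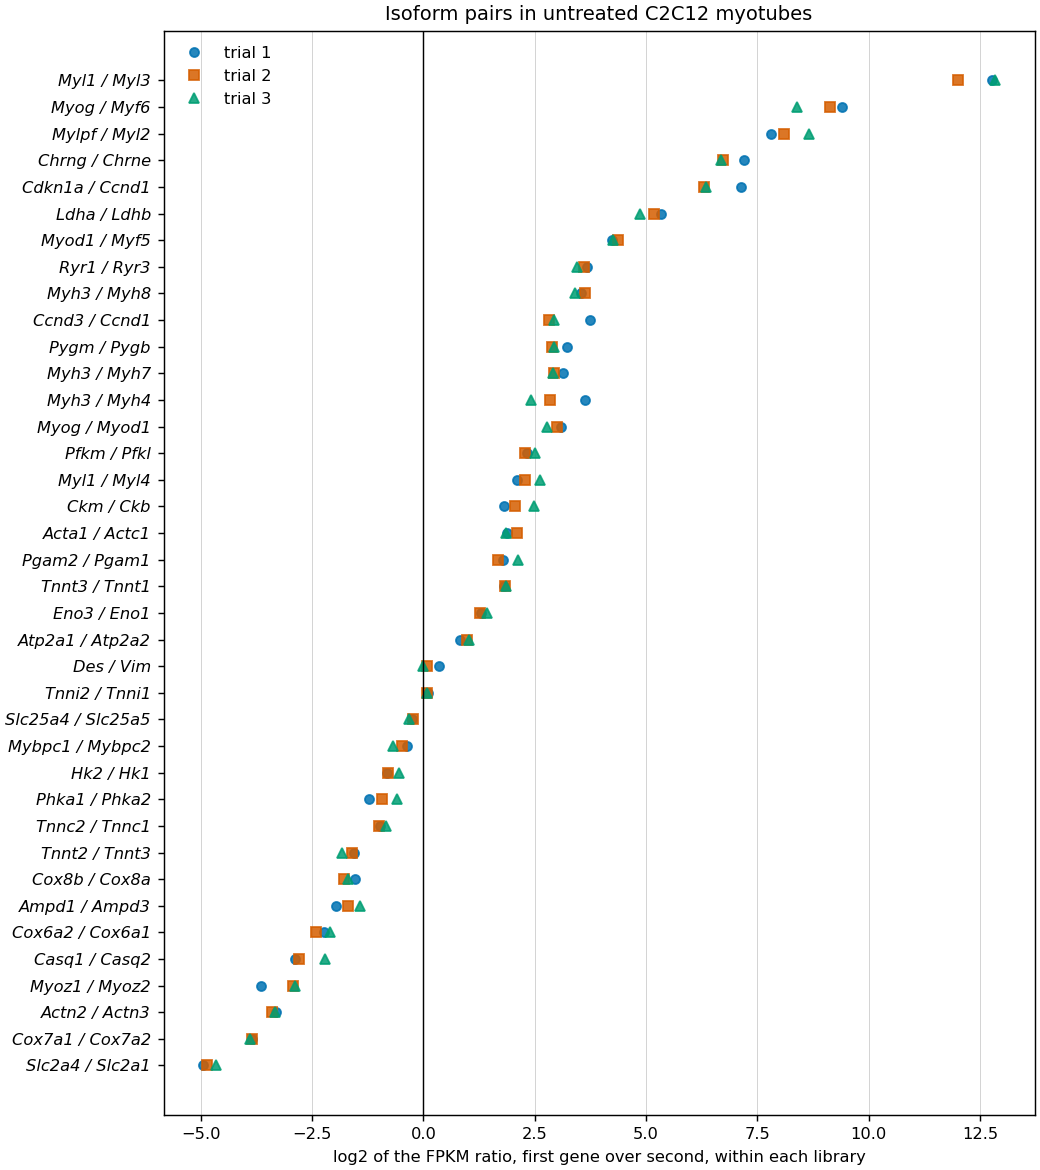
Log2 ratio of FPKM within each untreated library for 38 of 40 isoform pairs, with 1 point per trial and pairs sorted by their mean. Points right of 0 mean that the first gene is higher; only Des over Vim has trials on both sides of 0.

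Of 40 isoform pairs, the first gene was higher with no overlap in range in 23 and the second in 15, and the ranges overlapped for Des and Vim and for Tnni2 and Tnni1. With 3 libraries an exact two-sided sign-flip test cannot go below p = 0.25, so no ratio was tested. The pair of Cacna1s and Cacna1c has no ratio in the libraries where the second gene is at 0. Without division by gene length the log2 ratio of Myl1 to Myl4 was 0.74 in place of 2.33, that of Atp2a1 to Atp2a2 0.24 in place of 0.94, that of Pgam2 to Pgam1 0.79 in place of 1.87 and that of Tnnt2 to Tnnt3 -0.03 in place of -1.66.

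Metabolic isoforms were split. Among 14 pairs of a muscle and a general isoform, the muscle form was higher in 5. These were creatine kinase (Ckm over Ckb, 4.25-fold), enolase (Eno3 over Eno1, 2.40- to 2.68-fold), phosphoglycerate mutase (Pgam2 over Pgam1, 3.65-fold), phosphofructokinase (Pfkm over Pfkl, 5.17-fold) and glycogen phosphorylase (Pygm over Pygb, 8.11-fold). These 5 enzymes serve glycolysis, glycogen breakdown or the phosphocreatine store.

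In the other 9 pairs the general form was higher. The muscle forms of cytochrome c oxidase stayed below their general partners: Cox7a2 exceeded Cox7a1 by 14.5-fold, Cox6a1 exceeded Cox6a2 by 4.72-fold and Cox8a exceeded Cox8b by 3.19-fold. The glucose transporter Slc2a1 was 28.3-fold higher than the insulin-responsive Slc2a4, which stood at 0.880, 1.06 and 0.896 FPKM. Hk1, Ampd3, Phka2 and Slc25a5 were above Hk2, Ampd1, Phka1 and Slc25a4 by 1.21- to 3.21-fold. The order of Slc25a4 and Slc25a5, the ADP/ATP carriers, turned when reads were not divided by gene length. Hexokinase and phosphorylase kinase also serve glycolysis and glycogen breakdown.

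Unpaired glycolytic genes were abundant. Aldoa, which splits fructose bisphosphate, stood at 1217, 1245 and 1200 FPKM, and the pyruvate kinase gene Pkm at 964 ± 105 FPKM. The lactate dehydrogenase balance lay with Ldha, at 506 ± 29.5 FPKM against 14.6 ± 2.19 FPKM for Ldhb. Mb, the oxygen store myoglobin, reached 325 ± 17.4 FPKM, and Ckmt2, the mitochondrial creatine kinase of striated muscle, 1.02 FPKM. Eno1 and Gapdh have many processed copies in the genome, which makes their counts uncertain.

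Genes of the differentiated state far exceeded those of reserve cells. Of 20 listed differentiated genes 19 were detected and 13 exceeded 100 FPKM, with a median of 215 FPKM and a median rank of 230.5 among all genes. Of 20 reserve-cell and undifferentiated genes 16 were detected and 0 exceeded 100 FPKM, with a median of 7.50 FPKM and a median rank of 6832. Of all genes, 23.4% were detected and 1.25% exceeded 100 FPKM. The difference between the list medians on log2(FPKM + 1) was 4.67, 4.62 and 4.71 in trials 1, 2 and 3. It varied by an SD of 0.0444, far less than its size. The first list holds many contractile genes and the second many regulators. The difference is therefore no measure of the numbers of differentiated and reserve cells.

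The list held both fusion genes. Mymk, the membrane protein myomaker, stood at 603, 600 and 530 FPKM, and Mymx, myomixer, at 130, 114 and 95.6 FPKM, below the median of the list. Klhl41, a thin-filament chaperone adaptor, stood at 209 ± 15.4 FPKM and Cav3, the muscle caveolin, with a mean of 55.2 FPKM. The late members were the lowest, with Myf6 at 1.42 FPKM and Dmd at 0.646 FPKM, below the median of detected genes.

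Reserve-cell genes were low but mostly present. Sdc4, a syndecan of satellite cells, was the highest at 59.0, 75.2 and 84.9 FPKM. Id3, Id1, Klf4 and Hes1, repressors and regulators of undifferentiated cells, followed with means from 21.7 to 25.5 FPKM. Cd34, a surface antigen of quiescent satellite cells, stood at 9.38, 15.7 and 15.4 FPKM and was lowest in trial 1.

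The defining satellite cell factor Pax7 was detected at 2.79, 2.35 and 1.93 FPKM, from 1452 reads in all, and Myf5 at 4.85, 4.56 and 4.58 FPKM. Pax3, Twist1 and Calcr were listed at 0 in all 3 libraries. With 108008427 reads on genes in total, a count of 0 allows up to 3 reads of that total, a limit that covers counting error only.

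**Figure D4:**
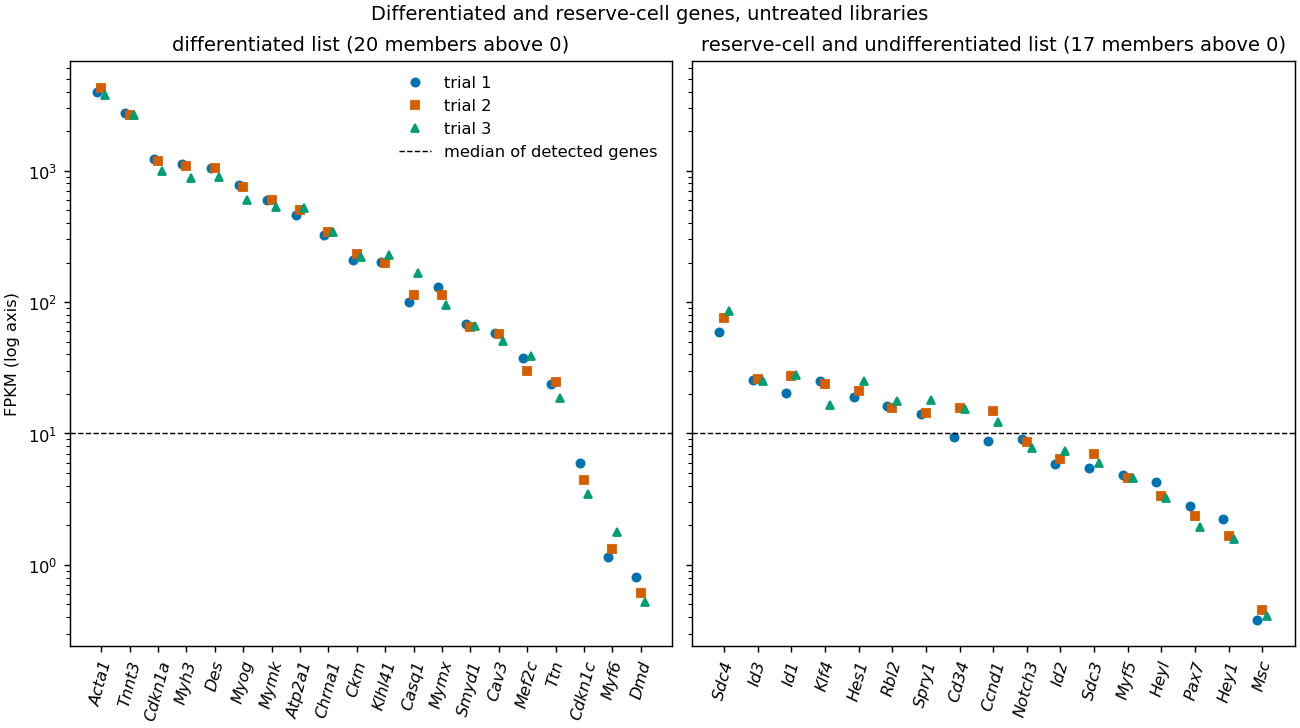
FPKM on a log axis for differentiated genes (20 above 0) and reserve-cell genes (17 above 0), with 1 point per untreated trial and a dashed line at the median of detected genes (10.1 FPKM). Most differentiated members lie above 100 FPKM, and no reserve-cell member does.

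Among 37 myogenic transcription factors and cofactors 29 were detected, against 23.4% of all genes. Only Myog exceeded 100 FPKM, which 1.25% of all genes did. Myog, the MyoD-family factor of terminal differentiation, stood at 774, 746 and 598 FPKM, and Myod1, the determination factor, at 91.2, 93.8 and 87.3 FPKM. Myog was 7.78-fold above Myod1, and Myod1 19.5-fold above Myf5. The family thus stood in the order Myog, Myod1, Myf5 and Myf6 in every library.

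Of the MEF2 partners, Mef2a (65.0 ± 4.51 FPKM) and Mef2d (52.4 ± 6.37 FPKM) were above Mef2c (35.3 ± 4.76 FPKM), and Mef2b stood at 0.151 FPKM. Nfix, a factor of the fetal myogenic program, stood at 74.1 FPKM and the muscle methyltransferase Smyd1 at 66.4 FPKM. Sox6, which represses slow genes in fast fibers, and Prox1, a factor of slow fibers, were at 0.0161 and 1.32 FPKM.

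An inhibitor of the cell cycle was among the highest genes. The inhibitor Cdkn1a (p21) stood at 1233, 1177 and 997 FPKM, at rank 23 of all genes, while cyclin D1 (Ccnd1) stood at 8.74, 14.9 and 12.2 FPKM. Cyclin D3 (Ccnd3), the D cyclin of myotubes, was 8.78-fold above Ccnd1. Of 33 listed genes 31 were detected, against 23.4% of all genes. The list, with its undetected members included, had a median of 9.39 FPKM, beside 10.1 FPKM for detected genes alone.

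Among the replication genes, Rrm2, a subunit of ribonucleotide reductase, stood at 76.2 ± 8.02 FPKM and Pcna, the replication clamp, at 61.6 ± 10.1 FPKM. The proliferation antigen Mki67 stood at 4.47, 5.56 and 3.53 FPKM and the mitotic kinase Cdk1 at 4.10 ± 0.836 FPKM. Cdkn2a and Cdkn2b, neighbouring inhibitor genes, were listed at 0.

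Secreted growth factors were at most moderate. The highest of 14 were Vegfa (47.7 FPKM), Fgf21 (45.4 FPKM) and the myostatin antagonist Fst (44.1 FPKM). None exceeded 100 FPKM, which 1.25% of all genes did. Igf1 stood at 4.19 FPKM and Igf2 at 1.61, 2.62 and 2.23 FPKM. Mstn, myostatin, had 11, 17 and 64 reads.

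The imprinted noncoding RNA H19 (chr7:142129266-142131880) had the third highest mean, at 5513, 4640 and 4125 FPKM. Its range overlapped those of its neighbours in rank, and in trial 3 it lay below mt-Co1, Mylpf, mt-Cytb, mt-Nd1 and Tnnc1. Igf2, its imprinted neighbour, had a mean of 2.16 FPKM. Malat1, a nuclear RNA, stood at 306, 369 and 401 FPKM and the X-inactivation RNA Xist at 48.9, 53.0 and 54.7 FPKM. The RNAs Meg3, Rian and Mirg of another imprinted cluster were listed at 0 in every library. The 9874 long noncoding genes, of which 370 were detected against 23.4% of all genes, held 2.01% of all FPKM.

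Trial-to-trial spread was small for most genes. Among 5813 genes with a mean of at least 10 FPKM, the ratio of the highest to the lowest trial had a median of 1.12 and a 95th percentile of 1.32. The ratio exceeded 1.5 in 76 genes, or 1.31%, and exceeded 2 in 8. The count of 76 depended on single libraries: it was 14 without trial 1, 67 without trial 2 and 20 without trial 3, where fewer libraries leave less room for a ratio. The median coefficient of variation was 5.79%, against 1.89% from counting alone.

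Listed genes with the least spread included the slow pump Atp2a2, at a coefficient of variation of 1.01%, and Actn2, Tpm3, Ldb3, Eef1a1, Id3, Aldoa, Tnnt3, Hrc and Tcap, with a ratio of at most 1.04. Of 13 housekeeping genes with a mean of at least 10 FPKM, 0 exceeded a ratio of 1.5, against 1.31% of all such genes. With so few genes this count is near that share.

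The 10 genes with the largest ratios were led by the annotated small RNA ENSMUSG00002075214 at 24.2, 12.2 and 8.81 FPKM, from only 56, 28 and 25 reads. It lies at chr7:142131586-142131655, within the bounds of H19, as does ENSMUSG00002076121 (87.7, 54.9 and 58.0 FPKM). Reads of these and of H19 cannot be told apart if the counting did not use strand. The next were the complement protease C1s1 at 7.15, 12.1 and 19.2 FPKM, the growth-factor binder Igfbp2 at 35.1, 44.0 and 17.8 FPKM and the matrix gene Fbln7 at 8.08, 14.8 and 19.5 FPKM.

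Also among these 10 were Pvalb, the water channel Aqp1 (8.20, 16.9 and 13.9 FPKM), the engulfment adaptor Gulp1 (7.44, 8.55 and 15.3 FPKM), the replication helicase subunit Mcm5 and the matrix proteoglycan Dcn. Of the 76 genes, 52 were lowest in trial 1 and 43 highest in trial 3. Trial 2 was the lowest in 3. Of all detected genes, 31.8% were lowest in trial 1, 31.3% lowest in trial 2 and 37.3% highest in trial 3.

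Some cell cycle genes varied between trials. Of 16 cell cycle genes with a mean of at least 10 FPKM, 6 exceeded a ratio of 1.5, against 1.31% of all such genes. They were Mcm2, Mcm3, Mcm4, Mcm5, Mcm6 and Ccnd1. Of the 31 detected genes of the list, 15 were lowest in trial 1, against 31.8% of all detected genes. Among these were all 6 MCM subunits, which form the replicative helicase and were singled out after their values were seen, with Mcm5 at 7.09, 13.9 and 13.3 FPKM and Mcm3 at 9.26, 15.8 and 15.7 FPKM. Their median log2 ratio to the gene's mean was -0.43 in trial 1 against 0.17 and 0.20 in trials 2 and 3. Ccnd1 and Cd34 were lowest in trial 1 too. In the whole list 19 of 31 were highest in trial 2, against 32.1% of all detected genes. These included all 9 mitosis genes, such as Top2a at 12.4, 17.1 and 13.1 FPKM.

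Lipid synthesis genes, like most detected myosin genes, were lowest in trial 3. Lists of sterol, fatty acid and mitochondrially encoded genes were chosen after their values were seen. Of 22 sterol synthesis genes 21 were lowest in trial 3, where 36.9% of all detected genes were lowest, and their summed level was 1539, 1534 and 1264 FPKM. A ratio of 1.5 was exceeded by 3 of 22, against 1.31% of all genes with a mean of at least 10 FPKM. Mvd, an enzyme of the mevalonate pathway, stood at 65.5, 57.9 and 38.4 FPKM. All 7 fatty acid synthesis genes were lowest in trial 3 as well, such as Acly at 91.4, 84.3 and 56.3 FPKM. The same held for 9 of 10 detected myosin heavy chain genes, 8 of 9 light chain genes and 27 of 41 metabolic isoform genes. Housekeeping genes (6 of 14) and detected reserve-cell genes (6 of 16) were nearer the share of all detected genes.

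The 13 mitochondrially encoded genes included 10 detected ones, where 23.4% of all genes were detected. Of these 10, 7 were highest in trial 3, against 37.3% of all detected genes. These 7 are the members with a mean above 10 FPKM, and mt-Co2, mt-Co3 and mt-Atp6 were highest in trial 1 or 2. All 13 summed to 16410, 17532 and 22415 FPKM and held 4.29%, 4.54% and 5.80% of all FPKM. Their highest member, mt-Co1, stood at 5001, 5239 and 6701 FPKM, while mt-Co2, mt-Co3 and mt-Atp6 of the same molecule stood at 3.27, 2.83 and 1.47 FPKM. Values of this set are uncertain, since reads shared with near-identical nuclear copies could be dropped or split by the counting. Trial 3 was also the library with the most reads and the highest fibroblast marker sum, and their part in these differences was not tested.

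**Figure D5:**
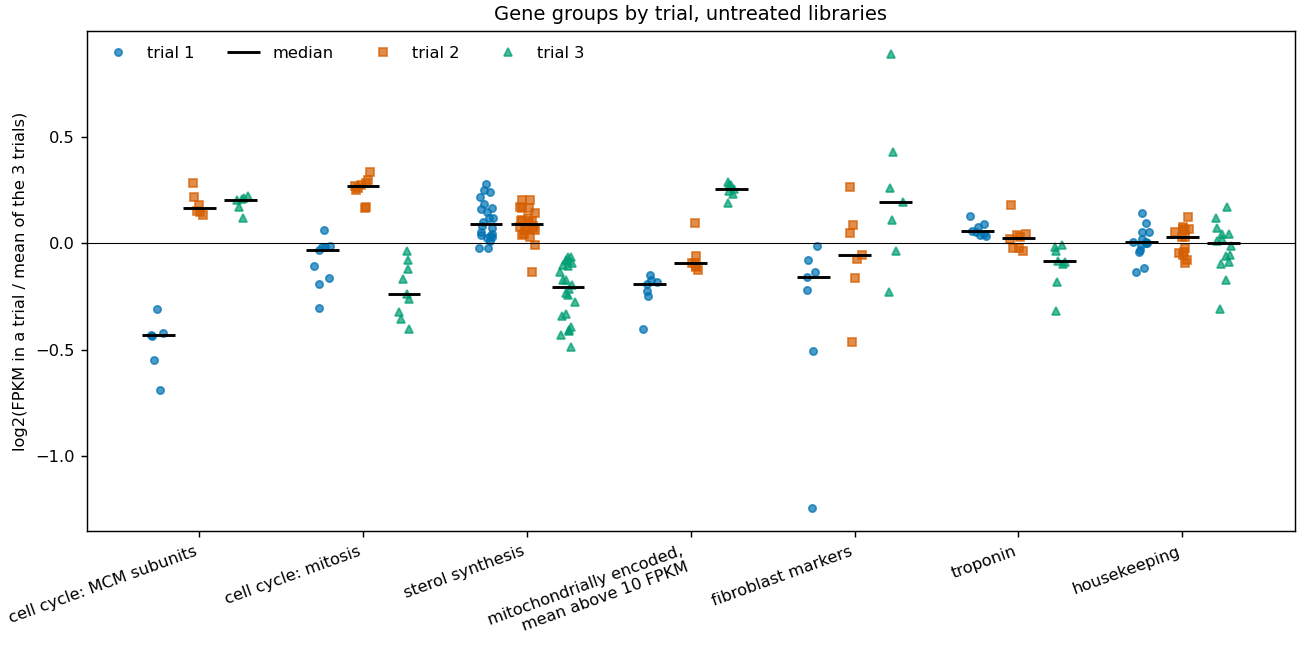
Log2 of FPKM in a trial over the mean of the 3 trials, for members of 7 gene groups, with 1 point per gene and trial and a black bar at the median. The MCM subunits lie low in trial 1 (median -0.43), sterol synthesis genes lie low and mitochondrial genes above 10 FPKM lie high in trial 3, and housekeeping genes lie near 0.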

How the data were processed

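Poly(A)-enriched RNA of 3 untreated C2C12 libraries was analysed. The submitters' processing notes name STAR 2.6.0c, HTSeq 0.6.1p2, DESeq2 1.22.2, Trim Galore 0.5.0 and build GRCm39. Aligner and counter settings, annotation release and strand use: not given in the sources used here. Per the file headers, the authors deposited FPKM per library. The deposited table also holds the authors' mean normalized count (a signal over libraries), log2 fold change, score and p-value per gene, of which only the mean was used.

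Each FPKM is a whole read number divided by gene length and a library factor. Reads could be recovered for all 126386 nonzero values (tolerance 1e-06). For 437 genes a common factor was chosen with the deposited mean, an assumption; that mean covers treated libraries and others not analysed here. Recovery was tested on simulated data.

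Levels, ranks, class shares and log2 ratios within libraries were computed with Python 3.11.15, numpy 2.4.6 and pandas 2.3.3, and plotted with matplotlib 3.10.9. Named genes were the 20 highest, members of 26 lists and 40 pairs, the 10 most and least variable and, per trial, the 5 most deviant on each side. Members, lists and pairs were chosen with earlier results of these data known. A further 3 lists, and genes named outside the rule, were chosen after their values were seen. Of the entries named Aldoa the higher is given. Alternatives were other thresholds, pseudocounts, TPM scaling, reads not divided by length and leaving out each library. Some genes that the rule names are not reported here.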

Additional observations from a re-analysis of the deposited data

How the results depend on the processing

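No paired analysis was possible because only the untreated group is described, and no groups that share trial numbers were compared. The number of genes with a ratio between trials above 1.5 was 76, against 614 at a mean of at least 1 FPKM, 14 at a mean of at least 50 FPKM and 8 for a ratio above 2. Leaving out 1 library gave 14 to 67. The difference between the medians of differentiated and reserve-cell genes was 4.67, against 4.82 with a pseudocount of 0.1 and 4.08 over detected members only, and 4.64 to 4.69 when a library was left out. With reads not divided by gene length, the log2 ratio of Slc25a4 to Slc25a5 turned from -0.27 to 0.36. The number of detected genes was 12754 at 0.5 FPKM, 8126 at 5 FPKM and 13214 by TPM. The 15 sarcomeric genes among the 50 highest were 15 in each alternative run. Of 78 pair ratios recomputed on other scales, 47 moved by less than the SD over trials, 30 moved by more and 1 reversed. Among the 30, the ratio of Tnni2 to Tnni1, whose ranges overlap, also changed sign, from 0.09 to -1.18, when reads were not divided by gene length. Of 14 class shares, 12 moved by more than their SD when reads were not divided by length. Depth limits only genes with a few reads, such as Sln and Pln.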

Other observations

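Genes outside the lists that are named here were chosen by how far 1 trial stood from the nearest other. Not all exceeded a ratio of 1.5 between highest and lowest trial, which 1.31% of genes with a mean of at least 10 FPKM did. The ratio was 1.37 for Stard10, 1.49 for Erfe and 1.30 for Dio2. Trial 1 was highest for Atp6v1c2, a proton pump subunit (13.1, 8.80 and 8.17 FPKM), Ctrb1, a digestive protease precursor (38.6, 29.0 and 24.4 FPKM), and Stard10, a lipid transfer protein (12.9, 9.41 and 9.82 FPKM). Trial 2 was highest for the secreted myokine Erfe, erythroferrone, at 8.98, 13.3 and 9.28 FPKM. It was lowest for Dio2, the enzyme that activates thyroid hormone, at 11.9, 9.17 and 12.0 FPKM. Trial 3 was lowest for Tppp3 (38.4, 36.6 and 20.6 FPKM), the keratin gene Krt80 (12.8, 12.4 and 7.17 FPKM) and the matrix protease Adamts4 (14.6, 13.8 and 8.61 FPKM).

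Matrix and secreted genes were among the highest nonmuscle transcripts. Sparc, a matrix glycoprotein, stood at 1060, 1184 and 1203 FPKM at rank 22, and Spp1, osteopontin, at 631, 842 and 1114 FPKM at rank 37. These 2 genes were chosen after their values were seen. Both were lowest in trial 1.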
